A study of Mus musculus with 10 samples.

Results

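A set of 10 genes of the dopamine system was described in whole mouse brain, chosen by name: each is a gene whose probe set carries that single symbol in the platform annotation. All 10 were on the array, each with exactly 1 probe set, among 19938 genes that could be named. Dopamine is made from tyrosine in 2 enzymatic steps, by tyrosine hydroxylase (Th), which sets the rate, and aromatic L-amino acid decarboxylase (Ddc). It is loaded into synaptic vesicles by the vesicular monoamine transporter VMAT2 (Slc18a2) and taken back up after release by the dopamine transporter (Slc6a3). The D1-like receptors (Drd1 and Drd5) stimulate adenylyl cyclase, the D2-like receptors (Drd2, Drd3 and Drd4) inhibit it, and monoamine oxidase A (Maoa) breaks monoamines down. In the adult brain most dopamine neurons lie in the ventral midbrain and project to the striatum and cortex, and a separate population of Th-expressing interneurons lies in the olfactory bulb.

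The ethanol brains came from adult male C57BL/6J offspring, at postnatal day 70, of mothers that drank 10% ethanol throughout gestation (from day 0) and until the pups were 10 days old. The control brains came from offspring of the same strain, sex and age whose mothers drank water. Both groups were measured on Affymetrix whole-transcript arrays in 2 independent experiments. Experiment 1 had 2 ethanol and 2 control arrays, each a pool of RNA from 3 mice, and experiment 2 had 3 ethanol and 3 control arrays, each a pool of 2 mice, so that each experiment used 12 mice. Exposure was through the drinking mother and covered gestation and early nursing, so the brains were taken long after it had ended. Litters are not named for the pools, so a p-value here reflects how pools of different mice varied, whether or not they shared a mother.

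Values were deposited as log2 levels, which ran between 4.27 and 15.4 on these arrays, with array medians of 6.99 to 7.05. Any 2 arrays correlated at 0.989 to 0.996 over all probe sets. For every probe set the mean of experiment 1 equalled that of experiment 2 to within 5.83e-05, so a difference between experiments had been removed before deposit and levels are compared only within an experiment. The small number of arrays limits the precision: the median standard error (SE) of an ethanol difference over both experiments was 0.05 log2 units.

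None of the 10 dopamine genes passed the test of ethanol against control brains after adjustment over all 21789 named probe sets, in either experiment or over both. The share called among all named probe sets was likewise 0% in each of these comparisons (limma, Benjamini-Hochberg adjusted p 0.05). The smallest adjusted p among the dopamine genes was 0.377 over both experiments, for Th (limma). At an unadjusted limma p of 0.05, Th was the single gene of the 10 below the threshold over both experiments, on the lower side, where 7.68% of all named probe sets lay (4.72% lay on the higher side). At the same unadjusted threshold 0 of the 10 stood out in experiment 1, where 4.93% of all named probe sets were lower and 4.02% higher, and 0 in experiment 2, where 6.19% were lower and 3.78% higher. With the same threshold an unmoderated linear model placed Maoa, Drd5 and Drd2 below it, 1 each over both experiments, in experiment 1 and in experiment 2, with 0 adjusted calls. That model placed 2422, 1855 and 2015 of the 21789 named probe sets below the threshold in those comparisons. The difference was below 0 for 8 of the 10 genes over both experiments, against 54.4% of all named probe sets, and the median of the 10 was -0.05 against -0.01 for all. Of the 10 genes, 7 lay in the third quartile of mean level, where the median of all named probe sets was -0.05 as well. In experiment 1, 8 of the 10 lay below 0 (background 51.8%) and 7 in experiment 2 (background 54.9%). The plot of single arrays shows how far ethanol and control arrays overlapped for each gene.

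**Figure D1:**
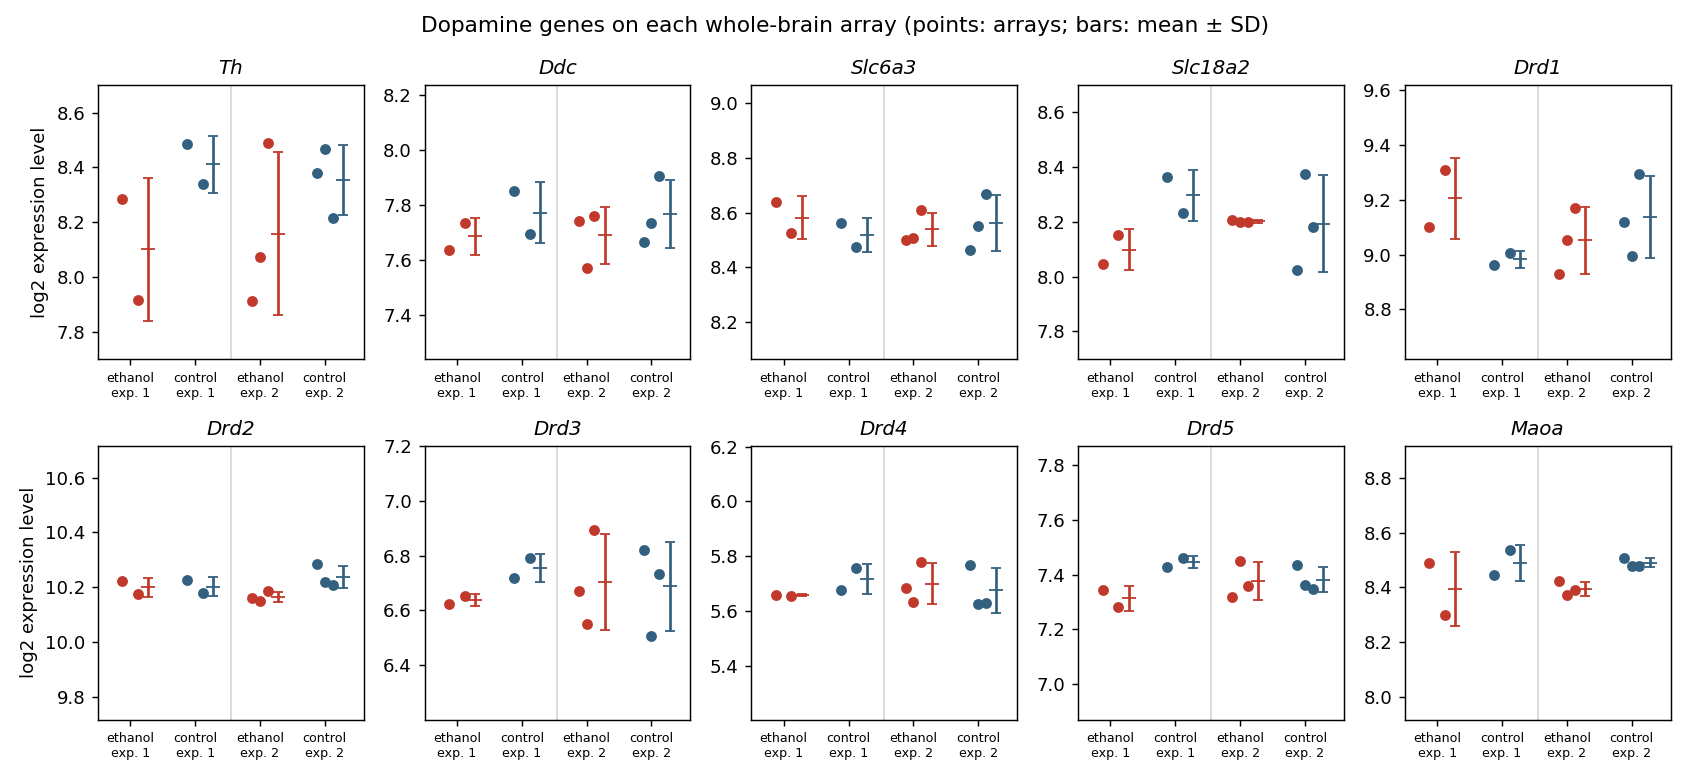
Log2 level of each of the 10 dopamine genes on every array (vertical axis, log2 units, each panel spanning the same range of 1 unit), with ethanol arrays left of control arrays within each experiment and the group mean ± SD as a bar beside the points. Th spread over more than any other gene of the 10, with ethanol arrays between 7.91 and 8.49 and control arrays between 8.22 and 8.48.

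Th, the rate-limiting enzyme, had the lowest ethanol difference of the 10 genes. In experiment 1 its log2 level was 8.29 and 7.92 on ethanol arrays, against 8.48 and 8.34 on control arrays. In experiment 2 it was 7.91, 8.07 and 8.49 on ethanol arrays, against 8.38, 8.47 and 8.22 on control arrays. Both ethanol arrays of experiment 1 lay under both controls, whereas in experiment 2 the first and second ethanol arrays lay under every control and the third lay above all of them. The mean was 8.10 ± 0.26 on ethanol arrays and 8.41 ± 0.10 on control arrays of experiment 1 (SD, n = 2 each), and 8.16 ± 0.30 on ethanol arrays and 8.35 ± 0.13 on control arrays of experiment 2 (SD, n = 3 each).

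Over both experiments the Th difference was -0.24 ± 0.10 log2 units (SE), which places ethanol brains at 84.6% of control brains (95% interval 72.5 to 98.7%). The limma p was 0.0361 before adjustment and 0.377 after it, and an exact permutation of treatment within experiments, two-sided over 120 assignments, gave 0.117. The difference was -0.31 ± 0.17 in experiment 1 and -0.20 ± 0.14 in experiment 2 (SE). Their own difference, experiment 2 minus experiment 1, was 0.12 ± 0.22 (SE). In the whole brain, fewer cells expressing a gene and less RNA per cell cannot be told apart, for Th as for every gene below. Leaving out the second ethanol array of experiment 1 moved the difference within that experiment to -0.13, and leaving out the first moved it to -0.50. Without the third ethanol array of experiment 2 the difference within experiment 2 was -0.36. Without the first ethanol array of experiment 2 it was -0.07, and the adjusted limma p stayed above 0.05 in all of these. Over both experiments the unadjusted limma p of Th ranged from 0.00132 without the third ethanol array of experiment 2 to 0.106 without the second ethanol array of experiment 1.

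The Th promoter is printed because it holds the cAMP response element (CRE), the site through which cAMP signalling is known to drive this gene. The 250 bases before the start site, from RefSeq (GRCm38.p6, chr7:142899996-142900245, minus strand, 5′ to 3′), are given with a GC box (GGGCGG on either strand) and the CRE (TGACGTCA, which reads the same on both strands) in capitals.
Th: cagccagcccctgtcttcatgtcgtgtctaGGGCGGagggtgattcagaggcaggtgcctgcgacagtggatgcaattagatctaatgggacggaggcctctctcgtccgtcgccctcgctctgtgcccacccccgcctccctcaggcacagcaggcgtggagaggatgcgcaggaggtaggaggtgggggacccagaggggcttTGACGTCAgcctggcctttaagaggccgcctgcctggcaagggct
Promoter windows, from 250 bases before to 50 after a start site, were found for all 10 genes, 12 windows in all since Ddc and Drd1 have 2 each. A full CRE occurred in 2 of these 12 windows, those of Th and Slc18a2, and in 1.79% of all 32851 RefSeq windows of the same length. In Th its first base was at position -45 from the start site, and in Slc18a2 at position -4, so that it ran across the start. The 30 bases around each (Th chr7:142900022-142900051, minus strand, and Slc18a2 chr19:59260863-59260892, plus strand, GRCm38.p6) have the CRE in capitals.
Th CRE: cagaggggcttTGACGTCAgcctggccttt
Slc18a2 CRE: agcgctgtccgTGACGTCAgagccggactg
The GC box occurred in 9 of the 12 windows and in 35.7% of all windows, and a TATAAA sequence on either strand in 1 of the 12, a Ddc window, and in 13.6% of all. These matches describe the sequence alone, and nothing about binding was measured.

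Ddc, which turns L-DOPA into dopamine and also makes serotonin, was lower than the control mean of its experiment on 5 of 5 ethanol arrays. In experiment 1 its log2 level was 7.64 and 7.73 on ethanol arrays, against 7.85 and 7.69 on control arrays. Experiment 2 gave 7.74, 7.57 and 7.76 on ethanol arrays, against 7.67, 7.73 and 7.91 on control arrays. The arrays overlapped in both experiments, since a control array stood among or below the ethanol arrays each time. The difference was -0.08 ± 0.06 over both experiments (SE), with an adjusted limma p of 0.563, and the exact permutation p was 0.25.

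The dopamine transporter Slc6a3, found almost only in dopamine neurons, differed least of the genes of synthesis and transport. Its log2 level was 8.64 and 8.53 on ethanol arrays against 8.56 and 8.47 on control arrays of experiment 1. The arrays of experiment 2 gave 8.50, 8.51 and 8.61 on ethanol arrays, against 8.46, 8.55 and 8.67 on control arrays. Ethanol and control arrays were interleaved in both experiments. The difference over both was 0.01 ± 0.05 (SE), so that ethanol brains stood at 101% of control brains with a 95% interval of 93.5 to 109%.

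Slc18a2, which fills vesicles with dopamine, noradrenaline and serotonin alike, had ethanol and control arrays that did not overlap in experiment 1 and overlapped in experiment 2. Its log2 level was 8.05 and 8.15 on ethanol arrays against 8.36 and 8.23 on control arrays of experiment 1. For experiment 2 the values were 8.21, 8.20 and 8.20 on ethanol arrays, against 8.02, 8.37 and 8.18 on control arrays. The ethanol arrays of experiment 2 lay almost on top of each other, inside the range of the controls, with an SD of 0.0045 on ethanol arrays and 0.18 on control arrays (n = 3 each). The difference was -0.20 ± 0.10 in experiment 1 and 0.01 ± 0.08 in experiment 2 (SE). Their own difference, experiment 2 minus experiment 1, was 0.21 ± 0.13, with an adjusted limma p of 0.840.

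**Figure D2:**
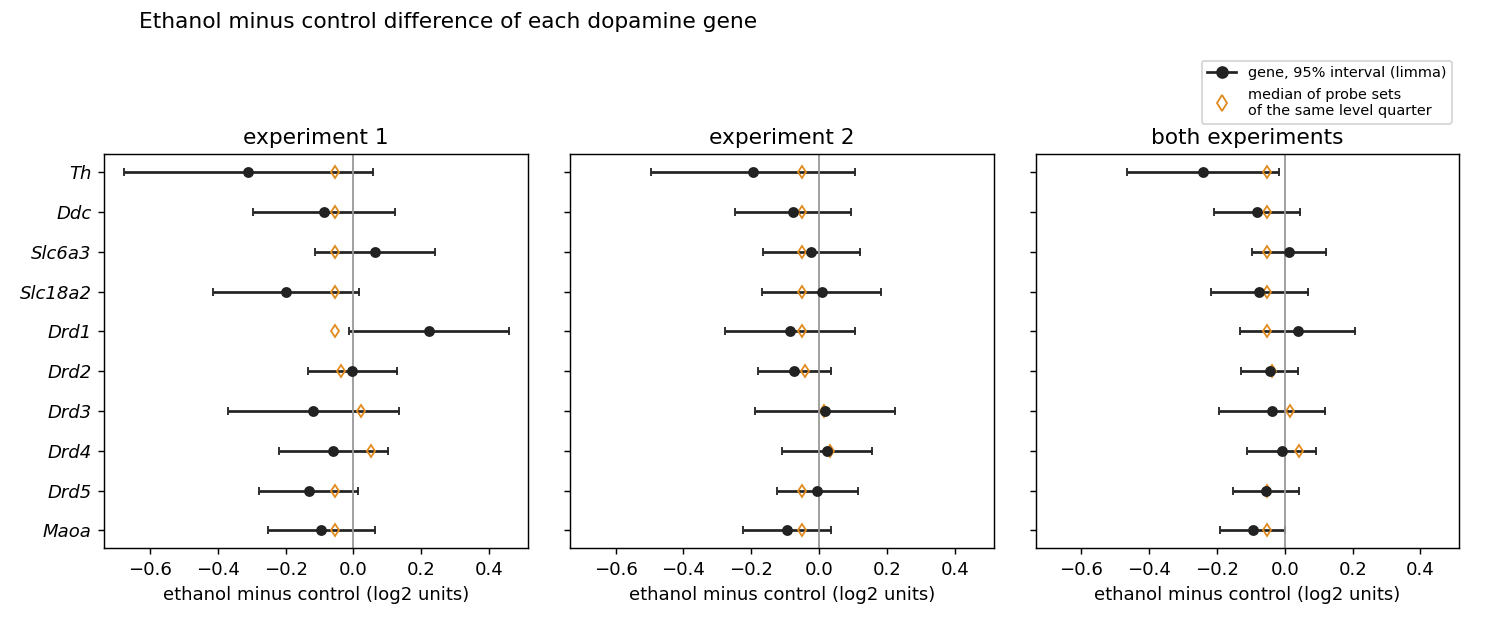
Ethanol minus control difference of each dopamine gene (horizontal axis, log2 units) in experiment 1, experiment 2 and over both, with the limma 95% interval as a bar, and an open diamond at the median of all named probe sets of the same quartile of mean level. Over both experiments the interval of Th, from -0.46 to -0.02, is the single one of the 10 that does not reach 0.

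Among receptors, Drd1, the main D1-like receptor of striatal projection neurons of the direct pathway, gave opposite signs in the 2 experiments. Its log2 level was 9.10 and 9.31 on ethanol arrays against 8.96 and 9.01 on control arrays of experiment 1. Experiment 2 gave 8.93, 9.05 and 9.17 on ethanol arrays, against 9.12, 9.00 and 9.29 on control arrays. Both ethanol arrays stood above both controls in experiment 1, whereas in experiment 2 the arrays overlapped and the ethanol mean was lower. The difference was 0.22 ± 0.11 in experiment 1 (117% of control, 95% interval 99.1 to 137%) and -0.09 ± 0.09 in experiment 2 (SE). Leaving out 1 array at a time, the difference ranged from 0.12 (without the second ethanol array) to 0.33 in experiment 1. In experiment 2 it ranged from -0.16 (without the second control array) to -0.0060 (without the third control array), and was -0.02 without the first and -0.14 without the third ethanol array. Experiment 2 minus experiment 1 was -0.31 ± 0.14, with a limma p of 0.0482 before adjustment and 0.759 after it. Among all named probe sets 3.24% lay on that side at the same unadjusted threshold and 3.33% on the other.

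Drd5, the other D1-like receptor, had log2 levels of 7.34 and 7.28 on ethanol arrays against 7.43 and 7.46 on control arrays of experiment 1. In experiment 2 it had 7.32, 7.45 and 7.36 on ethanol arrays, against 7.43, 7.36 and 7.35 on control arrays. Ethanol arrays lay below controls without overlap in experiment 1 and spanned the same range as controls in experiment 2. The difference was -0.13 ± 0.07 in experiment 1 and 0.00 ± 0.05 in experiment 2 (SE).

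Drd2, the D2-like receptor of indirect-pathway striatal neurons and the autoreceptor of dopamine neurons, had the smallest SE of the 10 over both experiments. Its log2 level was 10.22 and 10.18 on ethanol arrays against 10.23 and 10.18 on control arrays of experiment 1. The log2 levels of experiment 2 were 10.16, 10.15 and 10.19 on ethanol arrays, against 10.28, 10.22 and 10.21 on control arrays. The groups coincided in experiment 1 and were apart, with ethanol lower, in experiment 2. The difference was 0.00 ± 0.06 in experiment 1 and -0.07 ± 0.05 in experiment 2 (SE), and -0.04 ± 0.04 over both, with an exact permutation p of 0.0667 and an adjusted limma p of 0.628.

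Drd2 is also made by lactotrophs of the pituitary, and the pituitary hormone genes varied widely between arrays. Growth hormone (Gh) read 12.00 and 10.70 on ethanol arrays against 6.22 and 6.40 on control arrays of experiment 1. In experiment 2 Gh read 7.75, 13.48 and 7.63 on ethanol arrays, against 7.51, 7.15 and 9.48 on control arrays. Prolactin (Prl) and the glycoprotein hormone alpha chain (Cga) were highest on the same 3 ethanol arrays as Gh. The Drd2 level on those 3 arrays, 10.22, 10.18 and 10.15, lay within or below the range of the control arrays of the same experiment. Of 10 measured pituitary genes of 12 listed, 1 lay below 0 over both experiments, against 54.4% of all named probe sets. The median of the 10 pituitary genes was 0.28, with 0 adjusted calls.

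Drd3 and Drd4, the remaining D2-like receptors, are restricted in the brain and lay in the lower quartiles of the signal range here. Drd3 read 6.62 and 6.65 on ethanol arrays against 6.72 and 6.79 on control arrays of experiment 1, and 6.67, 6.55 and 6.89 on ethanol arrays against 6.82, 6.51 and 6.73 on control arrays of experiment 2. Drd4 read 5.66 and 5.66 on ethanol arrays against 5.68 and 5.76 on control arrays of experiment 1, and 5.69, 5.63 and 5.78 on ethanol arrays against 5.77, 5.63 and 5.63 on control arrays of experiment 2. For both genes the ethanol arrays were the lower ones without overlap in experiment 1 and were mixed with controls in experiment 2. The differences over both experiments were -0.04 ± 0.07 for Drd3 and -0.01 ± 0.05 for Drd4 (SE). Drd4 lay in the lowest quartile of mean level among named probe sets, the quartile that held 14 of 20 genes of organs other than brain, such as milk and sperm proteins. Drd3 lay in the second quartile, which held the other 6, so a level of this size on these arrays does not by itself show expression.

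Maoa, which degrades dopamine, noradrenaline and serotonin, had nearly the same difference in both experiments. Its log2 level was 8.49 and 8.30 on ethanol arrays against 8.44 and 8.54 on control arrays of experiment 1. The values of experiment 2 were 8.42, 8.37 and 8.39 on ethanol arrays, against 8.51, 8.48 and 8.48 on control arrays. Ethanol arrays were all lower than controls in experiment 2 and overlapped with them in experiment 1. The difference was -0.09 ± 0.07 in experiment 1, -0.09 ± 0.06 in experiment 2 and -0.09 ± 0.04 over both (SE), or 93.7% of control (95% interval 87.6 to 100.1%). The limma p over both was 0.0523 before adjustment and 0.408 after it, and the exact permutation p was 0.0333, where 0.0167 is the smallest it can give. Maoa, Th, Ddc, Slc6a3, Slc18a2, Drd1 and Drd5 all lay in the third quartile of mean level, where the median difference of all named probe sets over both experiments was -0.05. Without the second ethanol array of experiment 1, the Maoa difference in that experiment was 0.00.

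Counted without regard to size, ethanol arrays lay below all controls in experiment 1 for 5 of the 10 genes (Th, Slc18a2, Drd3, Drd4 and Drd5), against 19.2% of all named probe sets, and above all controls for Drd1, against 15.1%. In experiment 2 they lay below all controls for 2 genes (Drd2 and Maoa), against 11.6%, and above all controls for 0, against 7.62%. Taken over both experiments, 0 of the 10 were separated in the same direction in both, against 2.82% of all probe sets on the lower side and 1.47% on the higher side.

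Relations between the genes were examined across the 10 arrays after each experiment was centred on its mean, for 7 pairs. Th correlated with Ddc at 0.20, with Slc6a3 at 0.22 and with Slc18a2 at 0.29 (Pearson r, n = 10 arrays). Spearman's rho was 0.19 for Th with Ddc, 0.21 with Slc6a3 and 0.25 with Slc18a2. The highest r of the 7 was that of Ddc with Slc6a3, at 0.49 (rho 0.47, exact permutation p 0.178 for r and 0.203 for rho). It was 0.81 within the 6 arrays of experiment 2 and 0.10 without the 2 arrays farthest from the median of Ddc, so it rests on those arrays. For Ddc with Slc18a2 r was 0.42 (0.76 without the 2 arrays farthest from the median of Ddc, and 0.15 within experiment 2), for Slc6a3 with Slc18a2 0.01 and for Drd1 with Drd2 0.07. After Benjamini-Hochberg adjustment over the 7 pairs, the exact permutation p of r lay between 0.857 and 0.988 and that of rho between 0.886 and 0.974. Experiment 1 has 4 arrays, too few for a value of its own.

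Markers of the cells that express these genes were set beside them, because Th has sources in the midbrain and in the olfactory bulb. The array-by-array map of deviations shows both lists. The olfactory bulb list mixes genes of interneurons with genes of projection and other glutamatergic neurons (Doc2g, Cdhr1, Eomes, Tbr1 and Slc17a7). Of its 16 genes, all measured, 11 lay below 0 over both experiments, against 54.4% of all named probe sets, with a median of -0.03 over both, -0.17 in experiment 1 and 0.00 in experiment 2, and 0 adjusted calls. The mean log2 level of this list was 8.32 to 8.50 on ethanol arrays and 8.48 to 8.60 on control arrays of experiment 1, and 8.40 to 8.55 on ethanol arrays and 8.43 to 8.52 on control arrays of experiment 2. Pax6, a transcription factor needed for Th-expressing bulb interneurons, had the largest difference of those named by the smallest p, at -0.22 ± 0.08 (SE) over both experiments. Etv1, which drives Th in bulb interneurons, had -0.11, Calb2 -0.12 and Tshz1 -0.13.

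Doc2g and Cdhr1, both abundant in olfactory bulb projection neurons and chosen after their values were seen, were examined beside Th array by array. Doc2g read 7.47 and 7.05 on ethanol arrays against 7.81 and 7.52 on control arrays of experiment 1, and 7.30, 7.31 and 7.93 on ethanol arrays against 7.43, 7.48 and 7.31 on control arrays of experiment 2. Cdhr1 read 6.99 and 6.38 on ethanol arrays against 7.15 and 6.81 on control arrays of experiment 1, and 6.75, 6.44 and 7.47 on ethanol arrays against 6.78, 6.88 and 6.68 on control arrays of experiment 2. In experiment 1 both genes were lowest on the second ethanol array, where Th was 7.92, and in experiment 2 they were highest on the third ethanol array, where Th was 8.49. Dlx1, Tshz1 and Sp8, of the interneuron genes of the list, shared this order. They read 8.06, 8.07 and 5.57 on the second ethanol array of experiment 1. On the third ethanol array of experiment 2 they read 8.59, 8.40 and 5.81. Dlx1 and Sp8 were also picked after their values were seen. Other genes of the list did not share the order. On the third ethanol array of experiment 2 Pax6, Calb2 and Etv1 were at their lowest of that experiment, at 8.71, 11.40 and 11.42. Within experiment 1 they were lowest on the second ethanol array, at 8.57, 11.33 and 11.32. The mean log2 level of the cerebellar granule and Purkinje cell genes, read below, was lowest on the same arrays, at 10.43 in experiment 1 and 10.52 in experiment 2. A cerebellar part in the values of Pax6, Calb2 and Etv1 was not tested. On the first ethanol array of experiment 2, where Th was also low at 7.91, the median deviation of the whole list from the control mean was 0.02. Doc2g and Tshz1, at 7.30 and 8.20, lay below every control there, and Dlx1, Cdhr1 and Sp8 lay among the controls. The part of the olfactory bulb genes in the Th difference was not tested.

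**Figure D3:**
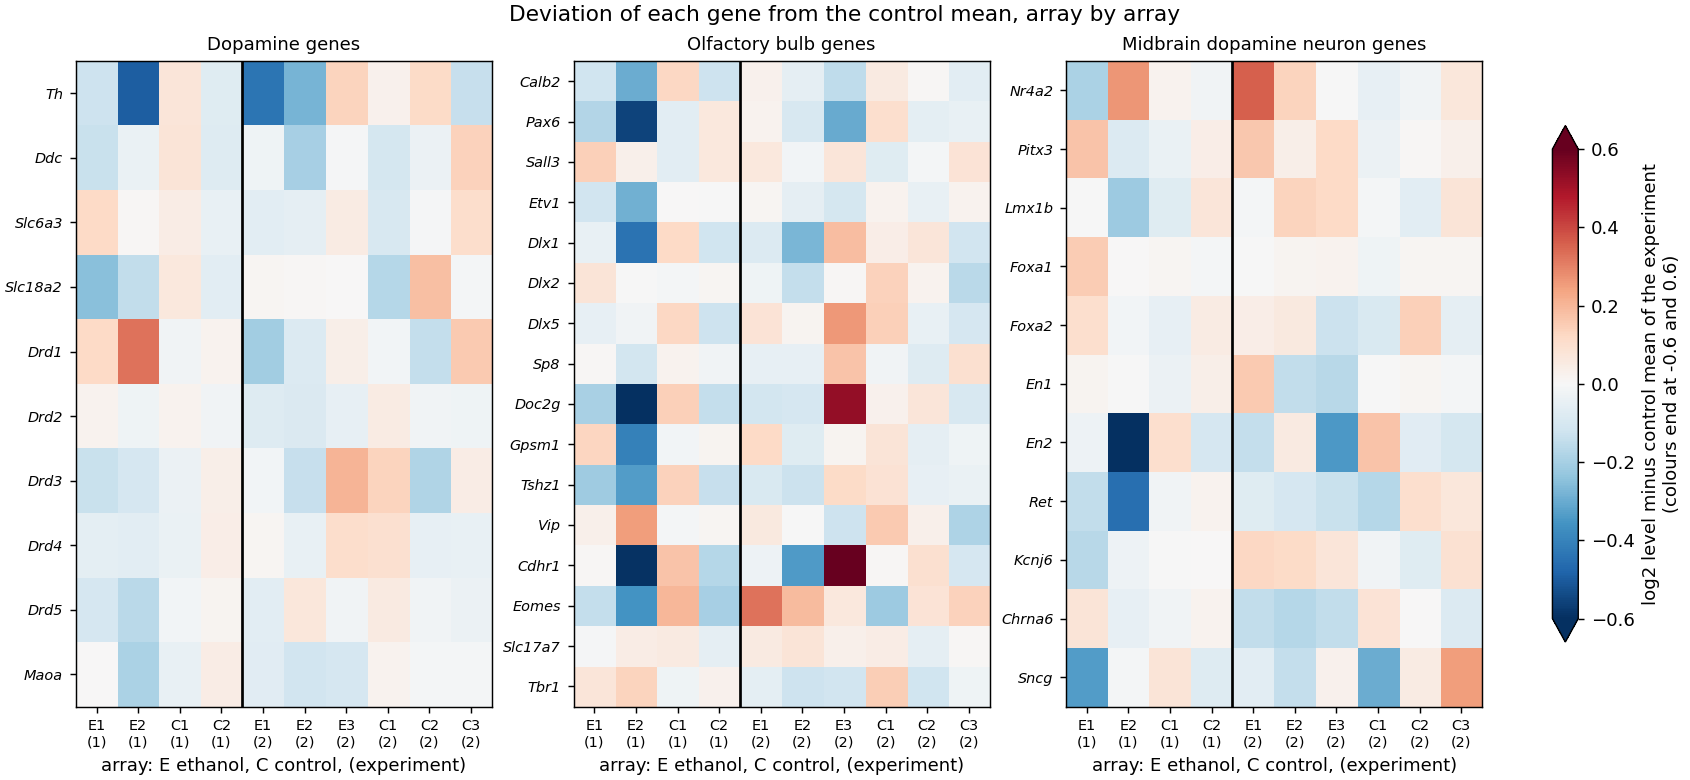
Deviation of each gene from the control mean of its experiment (colour, log2 units, colours ending at -0.6 and 0.6) on every array, ethanol arrays (E) left of control arrays (C) and a vertical line between experiments 1 and 2, for the dopamine genes, the olfactory bulb genes and the midbrain dopamine neuron genes. Th is low on the second ethanol array of experiment 1 together with Doc2g, Cdhr1, En2 and Ret, and is also low, at 7.91, on the first ethanol array of experiment 2. On the third ethanol array of experiment 2 Th, Doc2g and Cdhr1 are at their highest of that experiment. There En2 is at its lowest of that experiment, at 8.52, and Ret, at 8.29, lies among the controls.

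Midbrain dopamine neuron identity genes divided about evenly. Of 11 measured of 12 listed (Lmx1a was not analysed here), 5 lay below 0 over both experiments, against 54.4% of all named probe sets. The median of the 11 was 0.01, with 0 adjusted calls. Of the 11, 4 lay in the first quartile of mean level and 2 in the second, where the medians of all named probe sets were 0.04 and 0.02. As for Drd3 and Drd4, a level of that size does not by itself show expression. Ret, the receptor for the survival factor GDNF, had -0.18 ± 0.07 and En2, a homeobox gene that is also strong in the cerebellum, had -0.22 ± 0.11 (SE). Chrna6, a nicotinic receptor subunit of dopamine neurons, had -0.09, and Pitx3, a transcription factor of these neurons, had 0.08. Within experiment 1 Ret and En2 were lowest on the second ethanol array, at 8.07 and 8.33. On the third ethanol array of experiment 2, where Th was highest, En2 was at its lowest of that experiment, at 8.52. Ret, at 8.29, lay among the controls there. Cerebellar granule and Purkinje cell genes also lay on the lower side, 9 of 9 measured of 10 listed against 54.4% of all named probe sets, with a median of -0.20 over both experiments, -0.34 in experiment 1 and -0.11 in experiment 2, and 0 adjusted calls. Their part in the En2 value was not tested.

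Nr4a2 (Nurr1), a transcription factor that drives Th in midbrain neurons and is also an immediate early gene elsewhere in the brain, was looked at after its values were seen. It read 9.97 and 10.42 on ethanol arrays against 10.18 and 10.14 on control arrays of experiment 1, and 10.45, 10.23 and 10.09 on ethanol arrays against 10.05, 10.08 and 10.17 on control arrays of experiment 2. In each experiment its highest level was on the array where Th was lowest, and the order of the ethanol arrays within each experiment was the reverse of that of Th. The Pearson r of Nr4a2 with Th over the 10 centred arrays was -0.81, the lowest of the midbrain list. The rest of that list ran from -0.42 (Kcnj6) to 0.53 (Ret), with Pitx3 at -0.07. How many of all genes shared the reversed order was not counted. The Nr4a2 difference over both experiments was 0.11 ± 0.08 (SE), with an adjusted limma p of 0.582.

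A list of enzymes that supply the Th cofactor or break dopamine down, with the vesicular transporter Slc18a1, was read next. Of its 9 genes analysed here, 6 lay below 0 over both experiments, against 54.4% of all named probe sets, with a median of -0.11 over both, -0.02 in experiment 1 and -0.15 in experiment 2, and 0 adjusted calls. Aldh1a1, the aldehyde dehydrogenase of a subset of midbrain dopamine neurons, had -0.14 ± 0.04 (SE), with a limma p of 0.00537 before adjustment and 0.306 after it, and the same -0.14 in each experiment. Maob, the monoamine oxidase of glia and serotonin neurons, had -0.11 and Pcbd1, which recycles the cofactor tetrahydrobiopterin, had -0.13. Gch1, the first enzyme of tetrahydrobiopterin synthesis, had 0.08. Of the 9 genes 3 lay in the third quartile of mean level and 4 in the fourth, where the medians of all named probe sets were -0.05 and -0.04. The other 2, Gch1 and Slc18a1, lay in the first quartile, where that median was 0.04.

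The plot of list differences shows the remaining lists. On the receiving side, striatal projection neuron genes lay mostly above 0 in experiment 1 and mostly below 0 in experiment 2, on the same sides as Drd1. Of 18 such genes analysed here, 3 lay below 0 in experiment 1 (background 51.8%) and 13 in experiment 2 (background 54.9%), with medians of 0.03 and -0.06, and 0 adjusted calls in any comparison including that between the experiments. Their mean log2 level was 9.97 and 9.97 on ethanol arrays against 9.97 and 9.89 on control arrays of experiment 1, and 9.93, 9.91 and 9.93 on ethanol arrays against 10.03, 9.93 and 9.97 on control arrays of experiment 2. Of the 18 genes, 14 lay in the fourth quartile of mean level, where the median of all named probe sets was -0.04 in each experiment. Isl1, a homeobox gene of direct-pathway and cholinergic striatal neurons, had -0.15 over both experiments and Tac1, the substance P precursor of Drd1-expressing neurons, had -0.06. Rgs9, a striatal regulator of G protein signalling, and Bcl11b, a transcription factor of striatal projection neurons, had 0.05 each. The part of striatal tissue in the Drd1 difference was not tested.

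Proteins that couple or desensitise the receptors showed 13 of 16 measured genes of 18 listed below 0 over both experiments, against 54.4% of all named probe sets, with a median of -0.04 over both, 0.02 in experiment 1 and -0.05 in experiment 2, and 0 adjusted calls. Of these, 11 lay in the fourth quartile of mean level, where the median of all named probe sets was also -0.04. Named by the smallest p were Grk6, a receptor kinase, at -0.10, the adenylyl cyclase Adcy9 at -0.08, and the arrestins Arrb2 at -0.08 and Arrb1 at -0.05. Grk3, another receptor kinase, was picked after its values were seen: its difference was -0.26 ± 0.06 in experiment 1 and 0.07 ± 0.05 in experiment 2 (SE), with an adjusted limma p of 0.665 for the difference between experiments.

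**Figure D4:**
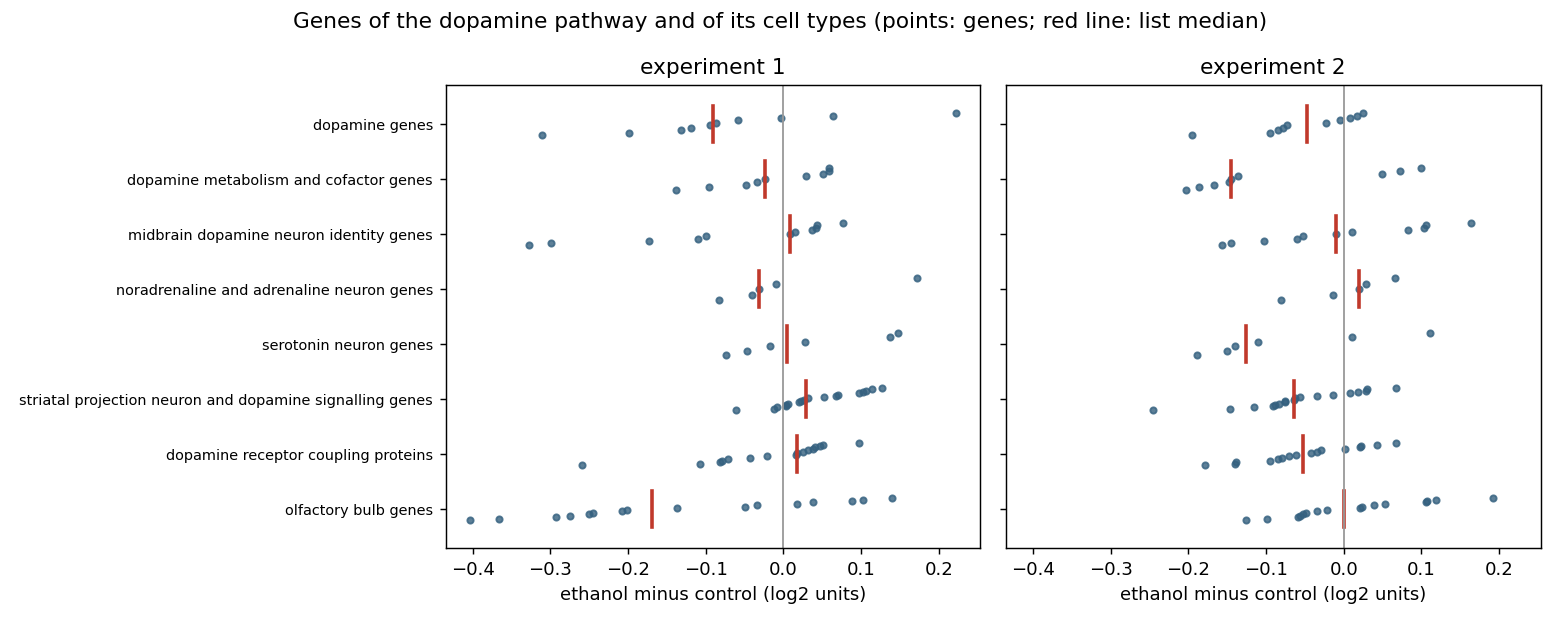
Ethanol minus control difference (horizontal axis, log2 units) of each measured gene in experiment 1 (left) and experiment 2 (right), with 1 row for the 10 dopamine genes and 1 for each list of related genes, and the list median as a red line. The olfactory bulb genes have a median of -0.17 in experiment 1 and 0.00 in experiment 2, and the striatal genes 0.03 in experiment 1 and -0.06 in experiment 2.

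Genes whose array pattern was most like that of a dopamine gene were sought among the other 19937 genes, by Pearson r over the 10 arrays after centring on the experiment mean. These are descriptions over 10 points that share arrays, and the highest values among so many genes. For Th the closest were Cdc42ep1 at 0.966, Pacsin3 at 0.915, Nol11 at 0.909, Abhd3 at 0.907 and Dnajc27 at 0.903. Slc6a3 was closest to Tmc3 (0.958), Hlx (0.941), Nkx6-1 (0.938), Vps37d (0.928) and Mapk13 (0.928). Drd1 was closest to Olfr462 (0.990), Shcbp1 (0.922), Adamts15 (0.916), Serinc1 (0.909) and Aga (0.908), and Drd2 to Mtif3 (0.952), Ttc34 (0.952), Otud5 (0.941), 4632404H12Rik (0.929) and Prpf40b (0.928). No other member of the dopamine system and no gene of the lists above was among the 5 closest to any of the 4.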

How the data were processed

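Whole-brain RNA of 5 ethanol and 5 control pools was measured on Affymetrix whole-transcript arrays. The authors deposited log2 levels per probe set (35556 probe sets, 0 missing values), made with Partek 6.6 per the submitters' processing notes. Which background correction, scaling or batch removal was applied is not given in the sources used here. Names came from the platform annotation: 21789 probe sets carried 1 symbol and were tested, 1621 carried several, and 12146 were not listed.

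Differences were computed with limma 3.58.1 in R 4.3.3 (lmFit, eBayes, Benjamini-Hochberg at 0.05 over 21789 probe sets). Experiment and treatment were the terms over both experiments (7 residual degrees of freedom). A mean per experiment and treatment gave the differences within experiments and between them (6 residual degrees of freedom). Signs run as ethanol minus control, or as experiment 2 minus experiment 1. Exact permutations moved treatment within experiments (120 assignments) and pairings of arrays (17280). On data simulated from these arrays, the comparison over both experiments recovered 27 of 50 probe sets changed by 0.25 log2 units, 47 of 50 at 0.5, and called 8 of 21589 unchanged ones. The simulation changed 200 probe sets and drew noise independently for each probe set and array. Differences between pools that many genes share were left out, so these counts need not hold for the arrays themselves. Promoters came from RefSeq (GRCm38.p6). Groups came from the titles. The genes, the marker lists and the tests were chosen with earlier results of these data known. The rule for named genes took the 10 dopamine genes, the 4 genes of each list with the smallest p over both experiments, Gh, Prl and Cga, and the 5 genes most like Th, Slc6a3, Drd1 and Drd2. Lists of other tissues are given by counts, medians and mean levels, with Umod named for its label alone. Doc2g, Cdhr1, Dlx1, Sp8, Nr4a2 and Grk3 were named after their values were seen. Alternatives tried were another normalization, filters, variance models, weights, a replicate block and leaving out each array.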

Additional observations from a re-analysis of the deposited data

Results flagged for a closer look

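Slc18a2 was noted because both ethanol arrays lay below the control mean in experiment 1 and all 3 lay above it in experiment 2. In experiment 2 they were above it by little: the ethanol mean was 8.202 and the control mean 8.194, with a control SD of 0.18. That difference of 0.0077 was -0.032 with arrays centred on their medians and ranged from -0.077 to 0.098 when 1 array was left out. The difference between the experiments was 0.21 log2 units (experiment 2 minus experiment 1), with a limma p of 0.132 before adjustment and 0.840 after it. Groups of 2 or 3 arrays are too small for a search for outlying arrays.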

How the results depend on the processing

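The count of dopamine genes called stayed at 0 in each of the 4 comparisons under every alternative run, with limma and with an unmoderated linear model. With the replicate number as a block it was also 0, and 1 of the 10 genes, Th, was below an unadjusted p of 0.05 over both experiments, as were 2638 of 21789 probe sets. Under the block Drd1 had an unadjusted limma p of 0.0260 in experiment 1 and 0.0191 between experiments (adjusted 0.482 and 0.695). In the same model 2025 of 21789 probe sets were below an unadjusted limma p of 0.05 in experiment 1, and 1437 between experiments. Whether the numbers pair the arrays was not settled. Deviations of same-numbered ethanol and control arrays correlated at -0.05 in experiment 1 and at 0.01, -0.15 and 0.23 in experiment 2. Differently numbered arrays of experiment 2 correlated at -0.23 to 0.21. With 2 arrays per group the deviations in experiment 1 mirror each other, so that experiment cannot tell.

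Some signs turned. Under quantile normalization Drd2 in experiment 1 was 0.039, Drd3 in experiment 2 -0.021 and Drd4 in experiment 2 -0.014. With arrays centred on their medians, Slc6a3 over both experiments was -0.0155, Slc18a2 in experiment 2 -0.032, and in experiment 2 Drd3 was -0.022 and Drd4 -0.0154. With array weights Slc6a3 over both was -0.0040, Drd1 over both -0.0149, Drd2 in experiment 1 0.0033, Drd3 in experiment 2 -0.0153 and Drd5 in experiment 2 0.0079. The r of Th with Slc6a3 was -0.0150 without the 2 farthest arrays. The cause was not tested.

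Leaving out 1 array at a time, the values over both experiments ranged from -0.0133 to 0.0458 for Slc6a3, from -0.0227 to 0.0976 for Drd1 and from -0.0354 to 0.0123 for Drd4. In experiment 1 they ranged from -0.027 to 0.0207 for Drd2 and from -0.191 to 0.000845 for Maoa. In experiment 2 they ranged from -0.0714 to 0.0310 for Slc6a3, from -0.0770 to 0.0980 for Slc18a2, from -0.0768 to 0.0957 for Drd3, from -0.0160 to 0.0715 for Drd4 and from -0.0425 to 0.0244 for Drd5. The Th difference between experiments ranged from -0.0699 to 0.300, and Th over both experiments from -0.34 to -0.17. Drd1 kept its signs within experiments, from 0.118 to 0.326 in experiment 1 and from -0.156 to -0.0060 in experiment 2. Among all probe sets, limma called 235 in experiment 1 and 94 between experiments without the first ethanol array of experiment 1, of which 0 were dopamine genes. The lone ethanol array was then assumed to vary like the other groups.

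A further probe set per gene could not be tried, since each gene has 1. Drd4 was lost to the filter at the 25th percentile, and the difference between experiments has no value when each is fitted alone. Th had an unadjusted limma p of 0.0594 over both experiments under quantile normalization. In simulated data for experiment 1, 6 of 50 changes of 0.25 log2 units were recovered, and 36 of 50 of 0.5.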

Other observations

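Slc18a2, Ddc and Maoa also serve serotonin and noradrenaline neurons, whose own genes were therefore read. Of 6 measured serotonin neuron genes of 8 listed, 4 lay below 0 over both experiments, against 54.4% of all named probe sets. The median of the 6 was -0.07 over both, 0.01 in experiment 1 and -0.13 in experiment 2, with 0 adjusted calls. The serotonin transporter Slc6a4 had -0.12, Tph2, the enzyme of serotonin synthesis, -0.10, the transcription factor Gata3 -0.10 and the receptor Htr5b 0.13. In experiment 2 Slc6a4 read 7.57, 7.63 and 7.56 on ethanol arrays, against 7.64, 7.84 and 7.85 on control arrays. All ethanol arrays were thus below all controls there, as for 11.6% of all named probe sets. Of 5 measured noradrenaline and adrenaline neuron genes of 6 listed, 2 lay below 0 over both experiments, against the same 54.4%. The noradrenaline transporter Slc6a2 had 0.09, the galanin receptor Galr1 -0.08, and the synthetic enzymes Dbh -0.02 and Pnmt 0.03. Of these 5 genes, 2 lay in the first quartile of mean level and 3 in the second, where the medians of all named probe sets were 0.04 and 0.02. Levels of that size do not by themselves show expression.

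Among tissues that a dissected brain may carry along or that border it, 9 of 9 choroid plexus genes lay below 0 over both experiments, against 54.4% of all named probe sets, with a median of -0.11 over both, -0.03 in experiment 1 and -0.27 in experiment 2. In experiment 2, 6 of the 9 were lower at an unadjusted limma p of 0.05, against 6.19% of all. Of 8 genes listed for the olfactory mucosa 6 lay below 0, with a median of -0.10 over both and 0.04 in experiment 1. The list includes Umod, a kidney gene, which was 1 of the 2 above 0. In experiment 2 the mean log2 level of that list was 6.08 to 6.50 on ethanol arrays, against 6.21, 7.59 and 5.95 on control arrays, the second control array standing apart. Of 5 measured pineal gland genes of 6 listed, 1 lay below 0 (median 0.04), with 4 in the first quartile of mean level and 1 in the second. Of 20 genes of organs other than brain, 2 lay below 0 (median 0.07). Of the 20, 14 lay in the first quartile of mean level and 6 in the second, where the medians of all named probe sets were 0.04 and 0.02. Limma gave 0 adjusted calls in each of these lists.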
